A study of Mus musculus with 4 samples.

Results

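The genes of the mouse histocompatibility complex were examined in skin of E17.5 embryos with and without overexpression of Ovol2 in the epidermis. Members were all genes whose symbol in the platform annotation starts with H2-, together with B2m, Tap1, Tap2, Tapbp, Nlrc5 and Ciita, each read from a probe set that names 1 gene only. This gave 35 of the 19938 genes with a probe set of their own: 20 class I genes, 8 class II genes, 6 accessory genes and H2-Ke6, which lies in the complex and encodes a steroid dehydrogenase. Total RNA of whole skin was hybridised to 4 whole-transcript Affymetrix arrays, each holding skin RNA of 2 mice. In the Ovol2 BT group (2 arrays) mice carried the TRE-Ovol2-Flag transgene and the K5-tTA driver, in which a keratin 5 promoter expresses the tetracycline transactivator in the basal layer of the epidermis. The control group (2 arrays) carried TRE-Ovol2-Flag without the driver or no transgene. All 4 samples are labelled female skin at E17.5, from littermates, and the titles call them biological replicates, so that p-values measure the spread between arrays of pooled mice.

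The strain label is FVB/N for Ovol2 BT and CB6F1 for the controls, although the mice are described as littermates. This bears directly on the complex, because its genes are among the most variable between inbred strains. As background, FVB/N carries the H2q haplotype, and CB6F1, the hybrid of BALB/c and C57BL/6, carries H2d and H2b. Strain and transgene cannot be told apart by the labels, and no probe sequence was analysed here.

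Class I molecules are heavy chains that pair with beta-2 microglobulin and show peptides from inside the cell to CD8 T cells and natural killer cells. The peptides are cut by the proteasome, moved into the endoplasmic reticulum by the transporter TAP and loaded with the help of tapasin. Class II molecules are alpha and beta chain pairs, made mainly by dendritic cells, Langerhans cells, macrophages and B cells, and show peptides from outside the cell to CD4 T cells. NLRC5 and CIITA switch on class I and class II genes through a shared arrangement of promoter elements, the X, X2 and Y boxes.

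In bulk RNA, a change in the number of cells of a type and a change in RNA per cell cannot be told apart. No member passed the test, and the values of most leaned slightly upward in Ovol2 BT. Of the 35 members, 25 passed a filter on dim genes, which removed the lowest 25% by mean intensity. In limma, fitted over 14953 genes with Benjamini-Hochberg adjustment, 0 of these 25 were called at an adjusted p of 0.05, against 0.963% of all genes tested, 0.615% called higher and 0.348% called lower. At an unadjusted p under 0.05, 4 members were higher and 0 were lower, against 5.11% and 5.24% of all genes. The differences of the 25 ran from -0.09 to 0.56 on the log2(intensity + 16) scale, with a median of 0.20, beside -0.04 over all genes tested. Of the 25, 23 were above 0, as were 44.4% of all genes. In 13 members both Ovol2 BT arrays lay above both control arrays, which held for 20.4% of all genes, and in 0 both lay below, which held for 21.9%.

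Genes of low level leaned upward in general, and most members are of low level. Among all tested genes with a mean intensity under 100 the median difference was 0.10, with 68.1% above 0, and in 37.9% both Ovol2 BT arrays were the higher. Between 100 and 200 the median was 0.03, with 54.2% above 0 and 29.7% with both Ovol2 BT arrays the higher. Between 200 and 500 it was -0.09, with 38.3% above 0 and 15.7% with both the higher. From 500 upward it was -0.09, with 35.1% above 0 and 12.2% with both the higher. These bands hold 6, 9, 7 and 3 of the tested members. The part of this pattern in the members' values was not tested.

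The precision of 2 arrays a group bounds how large a change could have been missed. The 95% intervals of 22 of the 25 tested members lay within a 2-fold difference either way. The other 3, those of H2-Ea, Tapbp and H2-M10.3, reached a 2-fold rise, and no interval reached a 2-fold fall. For scale, Ovol2 itself had 4367 and 3893 intensity units in Ovol2 BT, against 360 and 161 in the controls (log2 difference 4.0, SE 0.33, limma adjusted p = 0.00311).

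**Figure D1:**
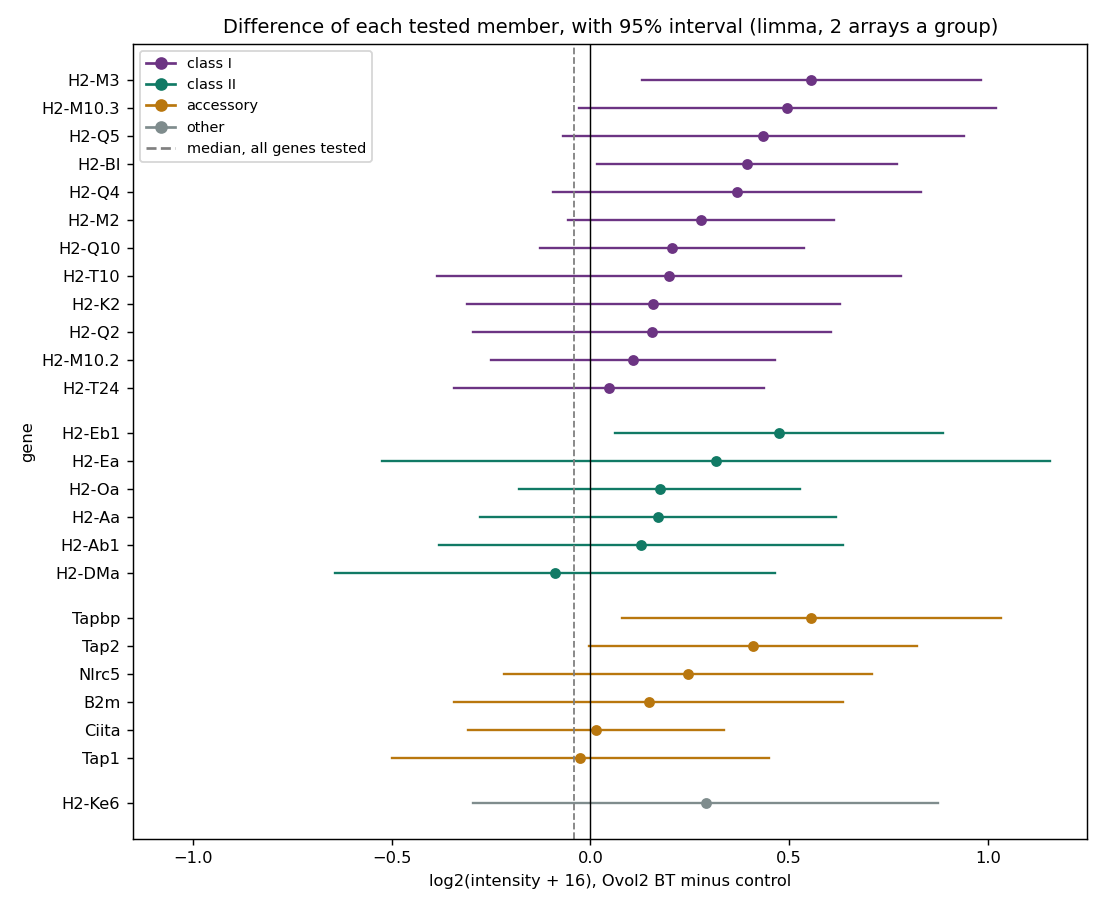
Difference of each of the 25 tested members, Ovol2 BT minus control on the log2(intensity + 16) scale, as points with the 95% interval of the limma fit as lines, grouped by class; the dashed line is the median of all genes tested, -0.04. Of the 25 intervals, 21 include 0, and the points run from -0.09 for H2-DMa to 0.56 for H2-M3 and Tapbp.

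The promoters of H2-M3, H2-Eb1, Tapbp and B2m are shown because the first 3 had the largest differences of class I, class II and accessory genes, and the fourth encodes the shared light chain. Each is the stretch of 250 bases before the gene's start, from RefSeq on GRCm38.p6, the C57BL/6J reference. Capitals mark matches, on either strand, to the Y box core CCAAT, the X2 half-site TGACG, an X box core AACNGATG, an interferon response element core AAANNGAAA and a kappa B core GGGANTCCC, where N is any base. The last 3 cores were shortened from longer ones after these sequences had been seen, which raises the number of matches in all genes. Because the sequences are those of members, matches of members to these 3 cores can also come from that choice.
H2-M3 (chr17:37269984-37270233, plus strand): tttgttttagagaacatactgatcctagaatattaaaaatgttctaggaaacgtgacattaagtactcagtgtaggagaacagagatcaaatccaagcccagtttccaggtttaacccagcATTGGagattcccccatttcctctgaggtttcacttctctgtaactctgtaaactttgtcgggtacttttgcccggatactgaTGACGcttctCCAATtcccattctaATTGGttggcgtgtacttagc
H2-Eb1 (chr17:34305617-34305866, plus strand): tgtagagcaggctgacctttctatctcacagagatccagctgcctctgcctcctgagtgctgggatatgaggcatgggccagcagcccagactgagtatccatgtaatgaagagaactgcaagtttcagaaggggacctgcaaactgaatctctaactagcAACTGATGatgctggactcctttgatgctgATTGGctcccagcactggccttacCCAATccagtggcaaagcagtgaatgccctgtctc
Tapbp (chr17:33919228-33919477, plus strand): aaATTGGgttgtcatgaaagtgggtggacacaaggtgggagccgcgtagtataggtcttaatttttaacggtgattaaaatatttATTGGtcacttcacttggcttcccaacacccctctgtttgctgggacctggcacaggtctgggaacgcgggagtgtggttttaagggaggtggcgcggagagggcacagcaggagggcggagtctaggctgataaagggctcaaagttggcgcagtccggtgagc
B2m (chr2:122147437-122147686, plus strand): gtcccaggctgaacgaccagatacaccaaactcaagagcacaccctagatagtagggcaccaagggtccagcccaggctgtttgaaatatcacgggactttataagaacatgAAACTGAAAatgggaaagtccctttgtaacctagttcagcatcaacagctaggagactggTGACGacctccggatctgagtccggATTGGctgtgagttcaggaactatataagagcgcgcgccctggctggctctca

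RefSeq windows were at hand for 25 of the 35 members, of either filter status. A Y box core lay in the window of 23 of the 25, and in 37.5% of all 27025 genes with a window. In H2-M3 a TGACG starts 46 bases before the gene's start and a CCAAT follows at 36, with reversed copies at 129 and 21. The X box core was found in 3 members, against 2.27% of all genes: H2-Eb1, where it starts 89 bases before the start with a reversed CCAAT at 59, H2-Eb2 and H2-M10.4. The X2 half-site was in 10 of the 25 members, against 19.8% of all genes. The interferon element was found in 3 of the 25, H2-DMa, H2-M11 and B2m, against 10.8% of all genes. In B2m it starts 138 bases before the gene's start, with a TGACG at 78 and a reversed CCAAT at 53. The kappa B core was in 0 of the 25 and in 0.751% of all genes. For the X box, interferon and kappa B cores, the counts of members cannot be compared with the shares of all genes. These cores were shortened after windows of members had been seen. None of the matches in the 4 windows printed overlap each other. A match is a run of letters in the C57BL/6J reference, and promoters of the other haplotypes were not analysed here.

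Among class I genes, H2-M3 had the largest difference. It encodes a heavy chain that presents N-formylated peptides, a mark of bacterial and mitochondrial proteins. Its intensity was 241 and 247 in Ovol2 BT, against 166 and 156 in the controls. Both Ovol2 BT arrays stood above both controls, by more than the gap between the replicates of either group. The log2 difference was 0.56 (SE 0.19, 95% interval 0.13 to 0.98), a 1.47-fold difference with a limma adjusted p of 0.346, which is not a call.

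The 4 tested Q region genes leaned the same way. H2-Q4, a nonclassical class I gene, had 447 and 456 intensity units in Ovol2 BT, against 360 and 332 in the controls. The groups did not overlap, and the difference was 0.37 (SE 0.20, adjusted p = 0.581). H2-Q5, a transcribed pseudogene in the reference annotation, had 205 and 274 in Ovol2 BT, against 194 and 152 in the controls. The gap between its Ovol2 BT replicates was wider than the gap between the groups, with a difference of 0.43 (SE 0.22, adjusted p = 0.555). H2-Q10, which encodes a class I protein secreted by the liver, had 89.5 and 82.2 in Ovol2 BT, against 67.9 and 77.0 in the controls (0.20, SE 0.15, adjusted p = 0.649). H2-Q2 had 297 and 293 in Ovol2 BT, against 257 and 269 in the controls (0.15, SE 0.20, adjusted p = 0.798). In all 4 the Ovol2 BT arrays were the higher ones, and 0 of the 4 passed the test. Both Ovol2 BT arrays were the higher in 20.4% of all genes tested. The share was 37.9% at a mean intensity under 100, where H2-Q10 lies, and 15.7% between 200 and 500. Of the probe sets naming several genes, that of H2-Q1 and H2-Bl was at 0.03 with overlap. That of H2-Q6 and H2-Q8 was at 0.30 without overlap, and neither was tested.

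Of the T region genes, H2-Bl stood apart between the groups on its own probe set, and H2-T10 and H2-T24 did not. H2-Bl, a transcribed pseudogene in the C57BL/6J annotation, had 124 and 141 in Ovol2 BT, against 101 and 92.7 in the controls (0.39, SE 0.17, adjusted p = 0.460). A brighter probe set that names both H2-Q1 and H2-Bl had 307 and 239 in Ovol2 BT, against 277 and 256 in the controls. Its groups overlapped, with a difference of 0.03, not tested. H2-T10, whose protein in some strains is a ligand of gamma delta T cells, had 337 and 204 in Ovol2 BT, against 246 and 209 in the controls. Its Ovol2 BT replicate 2 was the lowest of the 4 arrays, and without Ovol2 BT replicate 1 the difference of 0.20 (SE 0.26) became -0.14. H2-T24 had 104 and 100 in Ovol2 BT, against 112 and 85.8 in the controls, so that both Ovol2 BT arrays lay between the controls (0.05, SE 0.17, adjusted p = 0.934).

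The M region holds the M10 genes, known from vomeronasal neurons in the mouse, and most of them were at the low end of the arrays. H2-M10.3 had 169 and 118 in Ovol2 BT, against 77.1 and 119 in the controls. Its difference of 0.50 (SE 0.23, adjusted p = 0.508) came with overlapping groups, since Ovol2 BT replicate 2 was just below control replicate 2, and ranged from 0.23 to 0.76 with 1 array left out. H2-M10.2 had 97.0 and 104 in Ovol2 BT, against 85.6 and 99.0 in the controls (0.11, SE 0.16). H2-M2 had 95.1 and 82.0 in Ovol2 BT, against 67.9 and 72.3 in the controls, without overlap (0.28, SE 0.15, adjusted p = 0.567). H2-K2, a transcribed pseudogene of the K region, had 288 and 339 in Ovol2 BT, against 287 and 269 in the controls (0.16, SE 0.21). The lower Ovol2 BT array of H2-K2 was level with the higher control.

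The remaining 8 class I genes fell below the filter and were not tested: H2-M1, H2-M5, H2-M9, H2-M10.1, H2-M10.4, H2-M10.5, H2-M10.6 and H2-M11. Their intensities ranged from 7.31 to 78.2 in Ovol2 BT and from 7.26 to 68.6 in the controls. H2-M5 was higher in both Ovol2 BT arrays, with 65.8 and 78.2, against 58.9 and 58.5 in the controls. H2-M1 was lower in both, with 16.4 and 15.6, against 19.2 and 20.6 in the controls. No detection calls were used, so whether genes at such levels were expressed cannot be read from these values.

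Over the 12 tested class I genes the median difference was 0.24, and all 12 were above 0 in the values as deposited, while 11 of 12 were after quantile normalization, where H2-T24 was just below 0. In 8 of the 12 the Ovol2 BT arrays were both above the controls, against 20.4% of all genes tested and 37.9% of those with a mean intensity under 100. By pairs of arrays, 11 of the 12 were higher in Ovol2 BT replicate 1 when set against each control in turn, and 10 of the 12 were higher in Ovol2 BT replicate 2 when set against each control. Between replicates, 6 of the 12 were higher in Ovol2 BT replicate 1 than in replicate 2, and 7 of the 12 in control replicate 1 than in replicate 2. With all 20 class I genes the median was 0.16, beside -0.0020 over all 19938 genes.

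**Figure D2:**
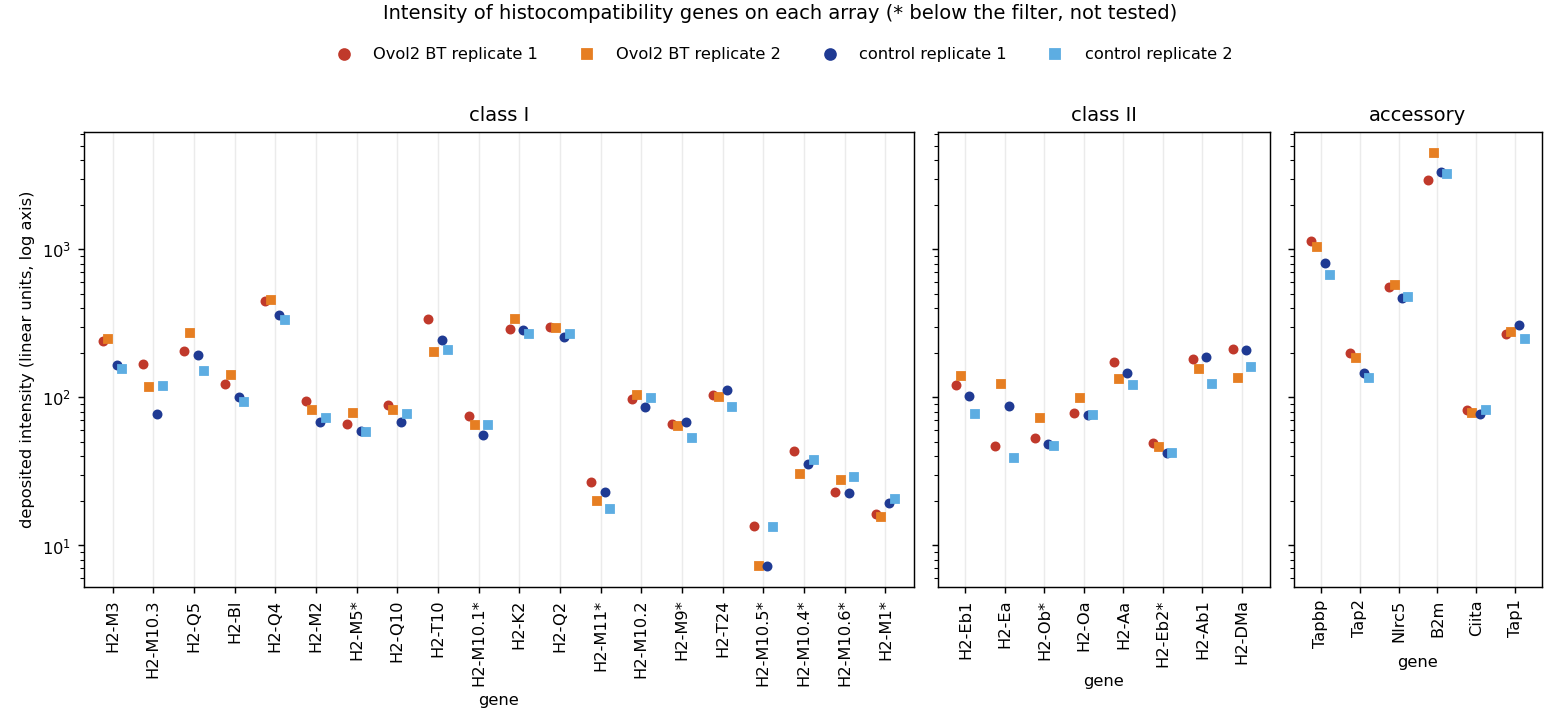
Deposited intensity of each class I, class II and accessory gene on each array (logarithmic axis), 4 points a gene, Ovol2 BT in red and orange and controls in dark and light blue; asterisks mark the 10 genes below the filter. H2-M3 shows Ovol2 BT at 241 and 247 above controls at 166 and 156, while H2-Ea has 1 high and 1 low array in each group.

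The classical class I genes H2-K1 and H2-D1 were read by shared probe sets and are no members. One probe set that names H2-D1, H2-K1 and LOC547349 had 1541 and 1213 intensity units in Ovol2 BT, against 1187 and 1181 in the controls. Another that names the same genes had 690 and 610 in Ovol2 BT, against 571 and 550 in the controls. On both, the Ovol2 BT arrays were the higher, with a log2 difference of 0.21 each, not tested, and the signal cannot be assigned to 1 gene. In all, 8 probe sets name several genes including an H2- gene, and 13 H2- genes appear on such probe sets alone. The 8 differences ran from 0.01 to 0.50. The largest, on a probe set that names H2-T9, H2-T22 and H2-T10, had 208 and 294 in Ovol2 BT and 248 and 115 in the controls, with overlapping groups. Paralogs of class I are close in sequence, and how far the probe sets that name 1 gene also bind RNA of its relatives was not analysed here.

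Of the 6 tested class II genes, 0 passed the test, and in 2 of the 6 both Ovol2 BT arrays were the higher, against 20.4% of all genes. The share was 37.9% at a mean intensity under 100 and 29.7% between 100 and 200. H2-Eb1, the beta chain of the I-E molecule, had 120 and 139 intensity units in Ovol2 BT, against 102 and 77.0 in the controls. Its groups did not overlap, with a difference of 0.47 (SE 0.18, 95% interval 0.06 to 0.89, limma adjusted p = 0.422). It was 0.30 when control replicate 2 was omitted and 0.65 when control replicate 1 was. H2-Aa, the I-A alpha chain, had 172 and 133 in Ovol2 BT, against 147 and 121 in the controls (0.17, SE 0.20, adjusted p = 0.777). H2-Ab1, the I-A beta chain, had 181 and 156 in Ovol2 BT, against 188 and 123 in the controls (0.13, SE 0.22, adjusted p = 0.857). For both I-A chains the groups overlapped, since control replicate 1 was above Ovol2 BT replicate 2.

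H2-Ea, the I-E alpha chain, varied most within groups. It had 47.1 and 124 in Ovol2 BT, against 87.5 and 39.1 in the controls, so that each group held 1 higher and 1 lower array. The difference was 0.32 (SE 0.37, 95% interval -0.52 to 1.16, adjusted p = 0.779). As background, the C57BL/6 allele makes no I-E alpha chain, and the reference annotation lists the gene as a transcribed pseudogene. Mice of the H2q haplotype also lack the I-E molecule, while those of H2d have it. With 1 array left out, the difference was -0.14 (omitting control replicate 2), -0.26 (omitting Ovol2 BT replicate 2) or 0.89 (omitting Ovol2 BT replicate 1). When control replicate 1 was omitted it was 0.77 with a limma adjusted p of 0.0341, from a fit whose lone control array is assumed to vary like the others and in which the spread of single genes carried no weight. Its mean level was also the lowest of the tested members, close to the filter.

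The remaining class II genes serve peptide exchange or belong to the I-E family. H2-DMa, a chain of the DM molecule that exchanges peptides on class II, had 212 and 136 in Ovol2 BT, against 209 and 159 in the controls (-0.09, SE 0.24, adjusted p = 0.911). H2-Oa, a chain of the DO molecule that holds DM back, had 79.0 and 98.7 in Ovol2 BT, against 76.6 and 76.5 in the controls (0.17, SE 0.16, adjusted p = 0.712). Its partner H2-Ob had 53.3 and 72.3 in Ovol2 BT, against 48.7 and 47.0 in the controls, and was below the filter. H2-Eb2, also below the filter, had 49.2 and 46.5 in Ovol2 BT, against 42.4 and 41.9 in the controls. In H2-Oa, H2-Ob and H2-Eb2 both Ovol2 BT arrays were the higher. These genes had mean intensities under 100, where this held for 37.9% of all genes tested.

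The median of the 6 tested class II genes was 0.17, with 5 above 0, and it rested on control replicate 2. All 6 were higher in control replicate 1 than in control replicate 2, by a median of 0.35. Without control replicate 2 the median was -0.05, and without control replicate 1 it was 0.35. The spread between the 2 controls thus exceeded the difference between the groups.

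Of the accessory genes of class I, Tapbp and Tap2 had the largest differences. Tapbp encodes tapasin, which holds class I molecules at the peptide transporter. It had 1144 and 1039 intensity units in Ovol2 BT, against 810 and 670 in the controls, without overlap. The difference was 0.56 (SE 0.21, 95% interval 0.08 to 1.03, limma adjusted p = 0.418). Tap1 and Tap2 encode the chains of that transporter. Tap2 had 200 and 185 in Ovol2 BT, against 147 and 135 in the controls (0.41, SE 0.18, adjusted p = 0.489). Tap1 had 269 and 275 in Ovol2 BT, against 308 and 249 in the controls, both Ovol2 BT arrays lying between the controls (-0.03, SE 0.21, adjusted p = 0.973). Whether Tap1 and Tap2 differ from each other in their response was not tested.

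B2m, the light chain of class I molecules, had 2939 and 4495 in Ovol2 BT, against 3326 and 3239 in the controls. Ovol2 BT replicate 2 was the highest array and Ovol2 BT replicate 1 the lowest, so the difference of 0.15 (SE 0.22, adjusted p = 0.825) was smaller than the spread within Ovol2 BT, and it was -0.16 without Ovol2 BT replicate 2. Ciita, the switch of class II genes, had 82.0 and 79.0 in Ovol2 BT, against 77.5 and 81.7 in the controls (0.01, SE 0.14, 95% interval -0.31 to 0.34). H2-Ke6 had 506 and 389 in Ovol2 BT, against 441 and 293 in the controls, with overlap (0.29, SE 0.26, adjusted p = 0.708). Its difference was 0.0078 when control replicate 2 was omitted and 0.57 when control replicate 1 was.

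Nlrc5, the switch of class I genes, has 19 probe sets that name it alone. The one with the highest mean had 553 and 575 intensity units in Ovol2 BT, against 472 and 474 in the controls, a difference of 0.25 (SE 0.20, adjusted p = 0.691) with no overlap. The mean over all its probe sets gave 0.12 (adjusted p = 0.804). Among the 19 probe sets, 13 were above 0 and 6 below. Both Ovol2 BT arrays were the higher in 8, the lower in 1 and overlapping in 10. Over all genes tested, both were the higher in 20.4% and the lower in 21.9%. The share with both the higher was 37.9% at a mean intensity under 100 and 29.7% between 100 and 200. Their differences ran from -0.16 to 0.45 with a median of 0.16. These probe sets share the same RNA and are not replicates.

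**Figure D3:**
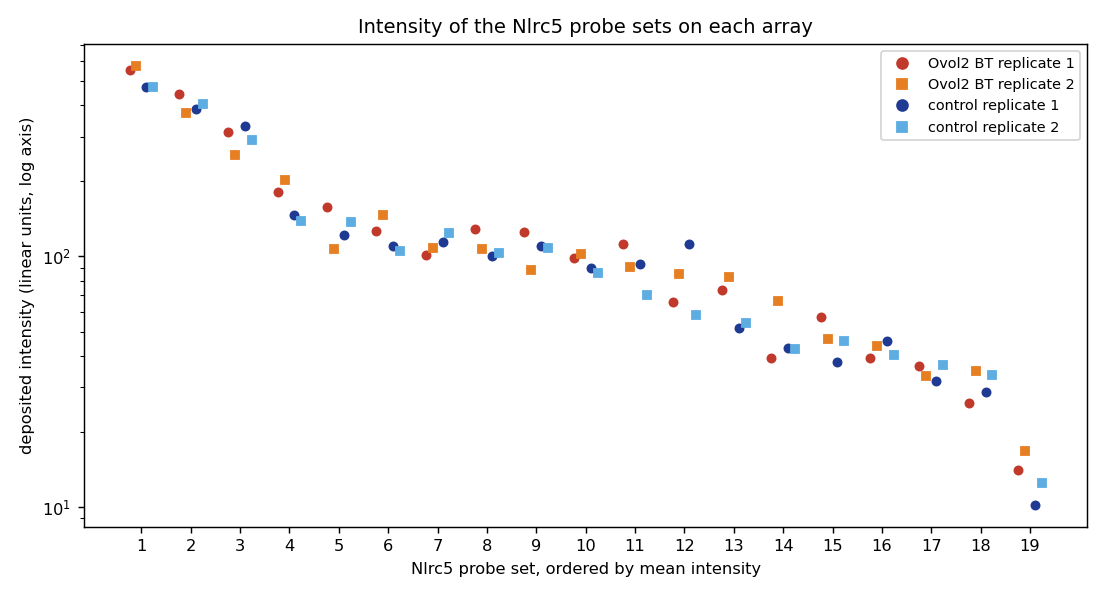
Deposited intensity (logarithmic axis) of the 19 Nlrc5 probe sets on each array, ordered by mean intensity, with Ovol2 BT in red and orange and controls in dark and light blue. Both Ovol2 BT arrays lie above both controls in 8 probe sets and below both in 1, beside 20.4% and 21.9% of all genes tested.

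Set among all genes tested, the tested members lay between the 43.4th and the 96.9th percentile of the differences. H2-M3 and Tapbp each stood at the 96.9th percentile, H2-M10.3 at the 96.0th and H2-Eb1 at the 95.5th. H2-DMa, at the 43.4th percentile, was the lowest of the tested members, and Tap1 was at the 52.1st.

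**Figure D4:**
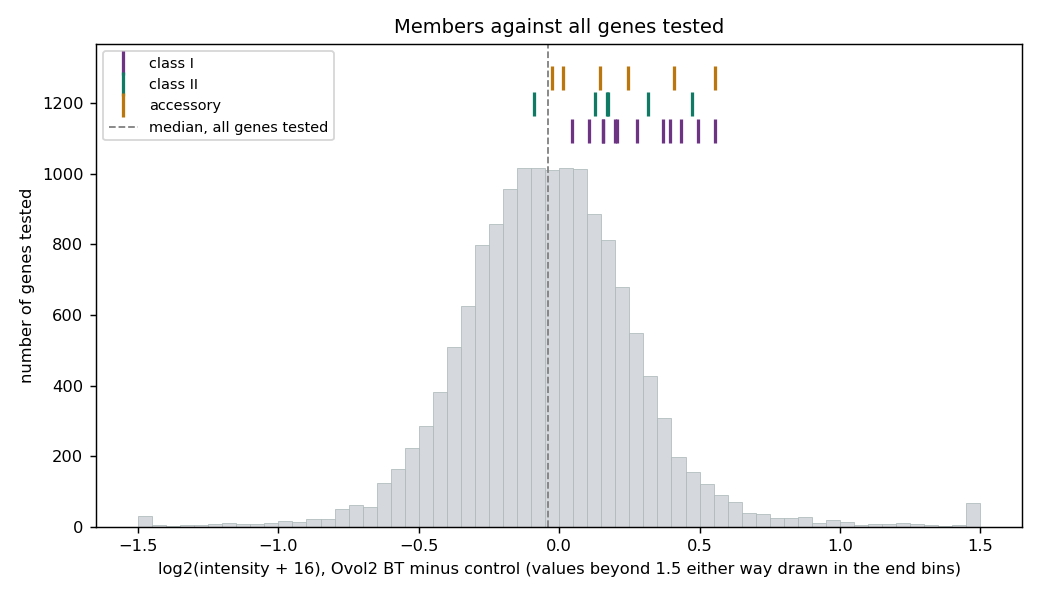
Histogram of log2(intensity + 16) differences, Ovol2 BT minus control, over 14953 genes tested, with the differences of 12 class I, 6 class II and 6 accessory genes as ticks above it and the median of all genes, -0.04, as a dashed line. The ticks lie between -0.09 and 0.56.

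The tested genes within the complex that are no members, Psmb8 and Psmb9 among them, were centred near 0. In the order of the reference annotation, the stretch of chromosome 17 from Tapbp to H2-M2 holds 32 members and 132 other genes of the array, 101 of them tested. Of these 101, 0 were called in limma, 4 were higher and 1 lower at an unadjusted p under 0.05, and the median difference was 0.04. Both Ovol2 BT arrays were the higher in 20 and the lower in 18, near the 20.4% and 21.9% of all genes. Those with the smallest p were Lta, which encodes lymphotoxin alpha (0.49, SE 0.15, adjusted p = 0.271), Znrd1, a subunit gene of RNA polymerase I (-0.66, SE 0.21, adjusted p = 0.286), Psors1c2 (0.39, SE 0.15, adjusted p = 0.432) and 2310061I04Rik (0.57, SE 0.23, adjusted p = 0.449). The members and their neighbours were set side by side without matching for intensity and without a test of the difference between them.

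**Figure D5:**
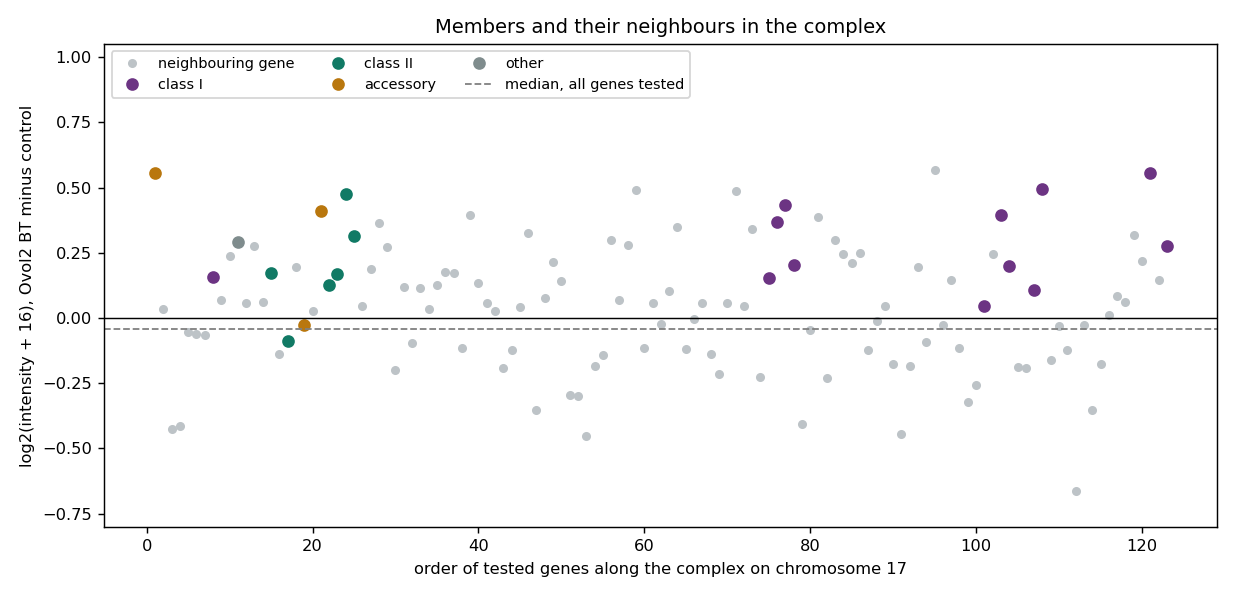
Log2(intensity + 16) difference, Ovol2 BT minus control, of the tested genes of the complex in their order along chromosome 17, with members in colour by class and 101 neighbouring genes in grey. Neighbours scatter around 0 with a median of 0.04, while members lie mostly between 0 and 0.56.

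Genes that supply class I with peptides were split in direction. Of 12 tested genes of the immunoproteasome and class I loading list, 0 were called, 6 were above 0 and 6 below, with a median of -0.04. Psmb9, an immunoproteasome subunit whose gene lies next to Tap1, had 162 and 169 in Ovol2 BT, against 153 and 132 in the controls (0.19, SE 0.18, adjusted p = 0.721). Psmb10, another subunit, was at 0.23 (SE 0.21, adjusted p = 0.720). The peptide trimming enzyme Erap1 was at -0.23 (SE 0.24) and the chaperone Calr at -0.14 (SE 0.16).

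Of 9 tested class II processing genes, 0 were called and 8 were above 0, against 44.4% of all genes. The median was 0.13, beside -0.04 over all genes tested. At an unadjusted p under 0.05 in limma, 1 was higher and 0 were lower, against 5.11% and 5.24% of all genes. That gene was Marchf1, an enzyme that marks class II molecules for breakdown, with 72.1 and 90.5 in Ovol2 BT, against 61.4 and 57.1 in the controls (0.36, SE 0.15, adjusted p = 0.451). The proteases Ctsb (0.36, SE 0.17, adjusted p = 0.506) and Lgmn (0.38, SE 0.19, adjusted p = 0.544) were also higher on both Ovol2 BT arrays. Marchf8, a relative of Marchf1, was lower on both (-0.24, SE 0.20, adjusted p = 0.692).

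Of the regulators of both classes, 0 of 16 tested genes were called, with 7 above 0, 9 below and a median of -0.08. Ifngr1, a chain of the interferon gamma receptor, had 948 and 1185 in Ovol2 BT, against 795 and 708 in the controls (0.49, SE 0.22, adjusted p = 0.479). Creb1, Rfxap and Nfya, whose products bind the X2, X and Y boxes, were lower on both Ovol2 BT arrays and were not called. Creb1 was at -0.45 (SE 0.21, adjusted p = 0.512), Rfxap at -0.36 (SE 0.19, adjusted p = 0.568) and Nfya at -0.36 (SE 0.20, adjusted p = 0.587).

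Class I relatives encoded outside the complex were measured on 6 tested genes, with 0 called, 4 above 0 and a median of 0.06. H60b, a ligand of the receptor NKG2D, had 60.5 and 55.5 in Ovol2 BT, against 68.3 and 109 in the controls (-0.47, SE 0.19, adjusted p = 0.443). The lipid-presenting genes Cd1d2 (0.24, SE 0.18, adjusted p = 0.650) and Cd1d1 (0.10, SE 0.15) and the protein C receptor gene Procr (0.11, SE 0.21) did not pass.

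Interferon raises class I genes in many cells, and the interferon-stimulated genes gave mixed values. Of 20 tested, 0 were called, 15 were above 0, against 44.4% of all genes, and the median was 0.19. Both Ovol2 BT arrays were the higher in 6 and the lower in 2, against 20.4% and 21.9% of all genes. Cxcl10, a chemokine gene, had 54.9 and 56.4 in Ovol2 BT, against 131 and 66.7 in the controls (-0.62, SE 0.24, adjusted p = 0.422). Its control replicate 1 was far above the other arrays and set the size of the difference. It was -0.21 (limma adjusted p = 0.873) when control replicate 1 was omitted and -1.04 (adjusted p = 0.00222) when control replicate 2 was, both from fits with a lone control array in which the spread of single genes carried no weight. Ifit2 was at -0.37 (SE 0.18, adjusted p = 0.517), while the guanylate-binding genes Gbp4 (0.33, SE 0.14, adjusted p = 0.483) and Gbp7 (0.43, SE 0.20, adjusted p = 0.506) were higher on both Ovol2 BT arrays. The part of interferon in the class I values was not tested.

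Whole skin holds many cell types. Antigen-presenting myeloid markers, on 19 genes of which 16 were tested, had 0 calls and a median of 0.09, with summed intensities of 9820 and 10278 in Ovol2 BT, against 9192 and 9029 in the controls. Both Ovol2 BT arrays were the higher in 8 of the 16 and the lower in 1, against 20.4% and 21.9% of all genes tested. Of the 16, 10 were above 0 and 6 below, and the median over all 19 was 0.0096. Itgam was the lower on both Ovol2 BT arrays (-0.36, SE 0.21, limma adjusted p = 0.591). Fcer1g was at -0.24 (SE 0.22) with overlapping groups. Ptprc, the general marker of blood-derived cells, had 127 and 138 in Ovol2 BT, against 100 and 118 in the controls. Cd68, a macrophage gene, had 1254 and 1085 in Ovol2 BT, against 915 and 605 in the controls (0.64, SE 0.25, adjusted p = 0.423). Its difference was 0.34 when control replicate 2 was omitted and 0.93 when control replicate 1 was. Langerhans cell markers, with 5 of 6 tested, were all below 0 with a median of -0.41 and 0 calls, and sums of 4041 and 5910 in Ovol2 BT, against 6086 and 7202 in the controls. That list holds genes that keratinocytes also express, such as Cd24a (-0.68, SE 0.22, adjusted p = 0.319), and its defining gene Cd207 was level at 50.8 and 52.4 in Ovol2 BT, against 50.5 and 49.0 in the controls, below the filter. T and NK cell markers had 4 of 11 tested with 0 calls, a median of 0.0034 and sums of 882 and 871 in Ovol2 BT, against 832 and 864 in the controls. B cell markers had 3 of 6 tested with 0 calls, a median of 0.23 and sums of 651 and 714 in Ovol2 BT, against 609 and 558 in the controls.

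Other markers of skin checked the labelled tissue. All 9 epidermal markers were below 0, with 3 called lower (Krt15, Krt5 and Krt14), and their summed intensity was 38798 and 34858 in Ovol2 BT, against 56458 and 48283 in the controls. All 6 adipocyte markers were above 0, with 4 called higher (Plin1, Lep, Adipoq and Cidec), and the sums were 13222 and 14134 in Ovol2 BT, against 4709 and 3465 in the controls. Fibroblast markers had 0 calls in 6 and a median of 0.06, with sums of 30604 and 30030 in Ovol2 BT, against 28484 and 30301 in the controls. Endothelial markers had 0 calls in 5 and a median of 0.19, with sums of 5547 and 6905 in Ovol2 BT, against 5363 and 5263 in the controls. The part of these cell types in the members' values was not tested.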

How the data were processed

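Skin of E17.5 mouse embryos was measured on 4 Affymetrix arrays, 2 Ovol2 BT and 2 control, grouped and numbered by the sample titles. Each deposited value is a linear intensity of 1 probe set on 1 array. The submitters' processing notes name PLIER 2.0 and Affymetrix Expression Console 1.1.1. The sources used here do not give the background correction, the normalization or the genome build. The values were used without further normalization. Median intensities were 126 and 132 (Ovol2 BT) and 123 and 126 (control). Close medians cannot show a shift that depends on level, such as the one described above.

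Of 35557 probe sets, 21789 name 1 gene in the platform annotation, 1621 name several and 12147 name none; 21698 of those naming 1 gene matched the reference table (GRCm38.p6) by Entrez ID. For genes with several probe sets the one with the highest mean was used. Intensities were taken as log2(intensity + 16), which understates changes of dim genes, and the 25% of genes with the lowest mean (4985) were left out. The fit over 14953 genes used R 4.3.3 and limma 3.58.1, with moderation towards a variance trend. Degrees of freedom were 2 (residual) and 6.94 (prior). Tests were two-sided, p-values were adjusted by Benjamini-Hochberg over all genes, and a call is an adjusted p under 0.05. The procedure was tested on simulated data with independent noise. It called 2.6% of 1.5-fold, 32.3% of 2-fold and 97.4% of 4-fold changes, so most changes of 2-fold or less were missed there. Summaries and figures used Python 3.11.15, pandas 2.3.3 and matplotlib 3.10.9. Nothing says that the animals of an array number were matched, so no pairing was used. The number of arrays limits the precision.

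Members and gene lists were chosen with earlier results of these data known. The naming rule asked for values per array for classical and accessory genes and for members with a log2 difference of at least 0.5; after the values had been seen this was widened to every tested member. Of other genes, Ovol2, up to 4 genes with the smallest p of each pathway list and of the neighbours, and called or leading genes of the marker lists were named. Ptprc and Cd207 were added as defining markers after their values had been seen. Itgam and Fcer1g were likewise added as myeloid markers that went the other way. Alternatives covered the pseudocount, the filter, the scaling, the variance model, probe set averaging, a replicate block and each array left out.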

Additional observations from a re-analysis of the deposited data

How the results depend on the processing

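No class I or accessory gene was called under any of the 15 alternatives, and the one call of a member was H2-Ea without control replicate 1. Members called thus ranged from 0 to 1 with 1 array left out, as did class II members called. Without either control replicate the prior degrees of freedom were infinite, so the spread of single genes carried no weight there. The smallest limma adjusted p of a member was 0.346 in the main fit. In the other fits on all 4 arrays it lay between 0.0641 with the replicate block and 0.349 without the filter. The number of genes called over all genes was 144, 206 to 366 with 1 array left out, 111 to 157 under the other scalings, filters and variance settings, 214 at a threshold of 0.10, and 671 with the replicate number as a block.

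With the replicate block, 0 members were called, with a smallest adjusted p of 0.0641, while Cd68 (0.0481), Cd24a (0.0161) and Znrd1 (0.0350) were. Arrays that share a number deviated from their group means with a correlation of 0.41 over genes, but with 2 pairs and no label the numbers are not known to pair the samples.

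The class I median of 0.24 was 0.18 with a pseudocount of 64 and 0.16 without the filter, which adds 8 dim genes, and 0.23 to 0.28 with 1 array left out. The class II median of 0.17 was -0.047 to 0.35 with 1 array left out, negative without control replicate 2, and had no value with the lowest 50% of genes left out, where no class II gene remained.

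With 1 array left out, the differences of 17 of the 25 tested members moved by more than 1.5 times. Those of H2-M3, H2-Bl, H2-Q4, H2-M2, H2-Q2, Tapbp, Tap2 and Nlrc5 did not. Several changed sign. Under quantile normalization Ciita was at -0.065, Tap1 at 0.042 and H2-T24 at -0.0043, and under median centring Tap1 was at 0.00039. With 1 array left out, B2m ranged from -0.16 to 0.45, Ciita from -0.018 to 0.044, Tap1 from -0.17 to 0.12, H2-T10 from -0.14 to 0.54, H2-T24 from -0.12 to 0.21, H2-Ea from -0.26 to 0.89, H2-Ab1 from -0.15 to 0.40, H2-DMa from -0.38 to 0.20, Erap1 from -0.57 to 0.10, Procr from -0.066 to 0.28 and Cd3e from -0.18 to 0.25. The calls of Krt5 and Krt14 ended without a variance trend (adjusted p = 0.0526 and 0.0524). The causes were not tested.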
